A study of Homo sapiens with 18 samples.

Results

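The regions described here were 3357 windows of about 1 kb in which chromatin was far more open in the ovarian cancer cell line PEO1 than in 5 other ovarian cancer lines. They were chosen from a table of 89428 windows by 2 conditions: each of the 3 PEO1 libraries exceeded 2 FPKM, and the PEO1 mean was at least 3 times the highest mean of A2780, CP70, PEA1, PEA2 and PEO4. FPKM is the number of fragments in a window scaled by window length and by the total reads of the library, and only chromosomes 1 to 22 were considered. The members made up 3.75% of the table and 3.86% of its 86965 autosomal windows. The levels of PEO1 against the other lines were therefore fixed by the choice and are given as a description, with no test.

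The assay was ATAC-seq, in which a transposase inserts sequencing adapters into accessible DNA. The 18 libraries came from 6 established lines with 3 replicates each, grown in RPMI-1640 with glutamine and serum, and the labels give no drug treatment. PEO1 and PEO4 were derived from 1 patient with high-grade serous carcinoma. PEO1 was taken while the disease was labelled platinum sensitive and PEO4 once it was resistant. The study states that both were taken after platinum-based treatment. PEA1 (sensitive) and PEA2 (resistant) came from the ascites of another patient before treatment and after relapse. CP70 (resistant) was selected in culture from A2780 (sensitive), and the labels assign this pair to an endometrial or ovarian origin. Each arm was 1 line and nothing states that replicates were separate cultures, so p-values measure only the spread between libraries, which may be technical.

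Most open chromatin lies either at gene starts, which are often CpG-rich and open in many cell types, or at distal elements such as enhancers, whose opening differs between cell types. AP-1 is a family of transcription factors formed by dimers of FOS and JUN proteins, and it binds a short palindromic sequence found at many distal elements. The set of open distal elements is therefore often used to tell tumour lines apart.

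Among the members, AP-1 sequences were common and promoters rare. The letters TGANTCA, the AP-1 recognition sequence, which reads the same on both strands, occurred in 65.7% of members (2207 windows) and in 38.3% of all windows. Promoters were defined as 1 kb before to 100 bases after an annotated protein-coding start. They accounted for 3.37% of members (113 windows) and 19% of all windows. The number of members depended strongly on how the libraries were scaled, with 543 windows meeting the rule once each library was centred on its median. The values under each scaling are given beside the levels.

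The sequences at the centres of the 8 members with the largest PEO1 ratio are shown because they carry the contrast between lines most clearly and differ widely from each other. They are the forward strand of GRCh37, in lower case, with matches to TGANTCA in capitals, and 120 bases are given except for a pair with 300 bases. A match describes the letters only and is not evidence of a bound site.
chr15:24731540-24731659: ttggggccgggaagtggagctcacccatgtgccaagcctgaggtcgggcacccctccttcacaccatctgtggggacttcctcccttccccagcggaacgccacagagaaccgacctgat
chr19:22715540-22715659: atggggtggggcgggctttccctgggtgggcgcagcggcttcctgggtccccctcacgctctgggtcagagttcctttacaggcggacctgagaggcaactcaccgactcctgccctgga
chr12:115664750-115665049: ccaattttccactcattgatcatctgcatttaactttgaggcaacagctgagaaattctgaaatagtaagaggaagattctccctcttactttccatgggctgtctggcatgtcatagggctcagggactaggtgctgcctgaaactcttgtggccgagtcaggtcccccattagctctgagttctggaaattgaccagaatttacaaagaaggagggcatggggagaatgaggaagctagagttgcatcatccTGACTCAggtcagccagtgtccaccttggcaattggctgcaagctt
chr12:128597750-128598049: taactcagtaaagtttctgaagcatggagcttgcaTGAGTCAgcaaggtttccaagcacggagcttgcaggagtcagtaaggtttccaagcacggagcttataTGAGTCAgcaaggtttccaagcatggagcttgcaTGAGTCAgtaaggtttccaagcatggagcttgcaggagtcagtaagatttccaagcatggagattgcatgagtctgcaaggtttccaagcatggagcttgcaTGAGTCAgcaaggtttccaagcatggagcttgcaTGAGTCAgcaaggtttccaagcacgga
chr18:67234940-67235059: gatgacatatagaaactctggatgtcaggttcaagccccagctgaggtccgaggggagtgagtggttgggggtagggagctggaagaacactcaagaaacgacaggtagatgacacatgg
chr5:144077840-144077959: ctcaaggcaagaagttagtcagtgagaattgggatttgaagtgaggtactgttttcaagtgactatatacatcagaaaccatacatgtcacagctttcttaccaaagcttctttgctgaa
chr2:14395040-14395159: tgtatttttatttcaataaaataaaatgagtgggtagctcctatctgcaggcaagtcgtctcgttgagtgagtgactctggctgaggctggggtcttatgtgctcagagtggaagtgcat
chr1:195761240-195761359: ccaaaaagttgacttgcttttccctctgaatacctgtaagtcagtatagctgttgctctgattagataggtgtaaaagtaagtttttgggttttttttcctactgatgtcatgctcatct

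Only 2 of these 8 windows held the AP-1 letters anywhere in their length. The window near TMEM132C held 9 matches, of which 5 lay in the 300 bases shown, and consecutive matches were 34 to 102 bases apart with a median of 51, within a visibly repeated sequence. The window on chromosome 12 far from TBX3 held 4 matches, 1 of them in the stretch shown. The other 6 windows held none.

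All 8 windows were nearly closed outside PEO1. The largest ratio, 26.6, belonged to chr15:24731100-24732100, an intergenic window 189 kb from the start of NPAP1, with 13.1, 12.1 and 13.5 FPKM in the PEO1 libraries and 0.222 to 0.53 in the libraries of the other lines. Near ZNF492, a zinc finger gene whose start was 102 kb away, the PEO1 libraries of chr19:22715100-22716100 had 15.3, 14.8 and 16.8 FPKM against 0.233 to 0.658 elsewhere. The window chr12:115664400-115665400 lay 543 kb from TBX3, which encodes a T-box transcription factor, and had 12.6, 12.1 and 13.8 FPKM in PEO1 against 0.227 to 0.654. No library of another line came near a PEO1 library in any of these places.

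The repeated window near TMEM132C, chr12:128597400-128598400, lay 154 kb from the start of that gene and had 14.1, 12.7 and 14.4 FPKM in PEO1 against 0.116 to 0.809 in the others. The window chr18:67234500-67235500 lay in an intron of DOK6, which encodes an adaptor protein of receptor tyrosine kinase signalling, with 13.4, 14.8 and 14.2 FPKM against 0.0838 to 1.04. It was the only one of the 8 inside a protein-coding gene. For chr5:144077400-144078400, which lay 493 kb from KCTD16, PEO1 had 12.2, 11 and 12.6 FPKM against 0.177 to 0.639. For chr2:14394600-14395600, which lay 378 kb from LRATD1, PEO1 had 13.4, 16.7 and 16.3 FPKM against 0.156 to 0.872. The last window, chr1:195760800-195761800, was 816 kb from KCNT2, a potassium channel gene, and had 15.5, 14.9 and 13.7 FPKM against 0.275 to 1.06. All 8 met the rule under each of the 3 other scalings, with ratios of 5.49 to 10.2 with median centring, 5.36 to 10.6 with quantile normalization and 7.27 to 17.8 with the median of each 5 Mb bin removed.

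**Figure D1:**
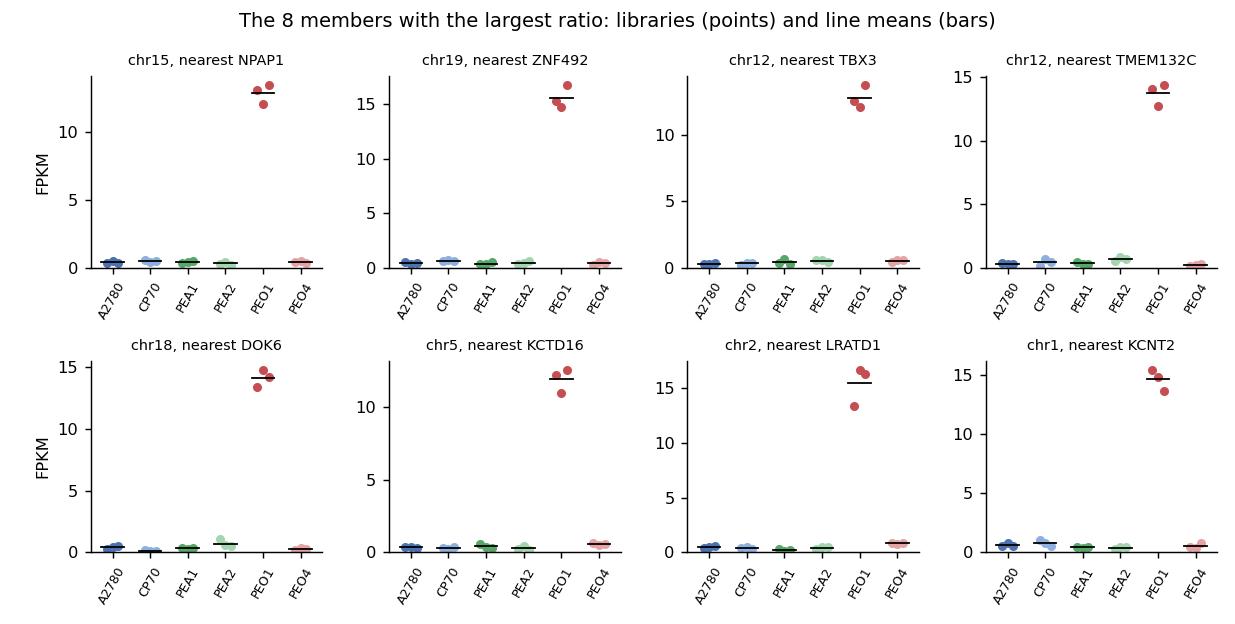
FPKM in each of the 18 libraries for the 8 members with the largest PEO1 ratio, 1 panel per window, with points for libraries, bars for line means and lines along the horizontal axis. The 3 PEO1 points lie above all 15 points of the other lines in every panel, with PEO1 values between 11 and 16.8.

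The members as a whole were weakly open outside PEO1. Their median FPKM in the 3 PEO1 libraries was 4.65, 4.54 and 4.57. In PEO4, from the same patient, it was 0.93, 0.912 and 0.996. In PEA2 it was 0.769, 0.636 and 0.71, in PEA1 0.417, 0.436 and 0.432, in A2780 0.349, 0.361 and 0.38, and in CP70 0.303, 0.359 and 0.335. PEO4 was thus the most open of the other lines at the typical member and A2780 and CP70 the least, and libraries of a line lay close together. Over all windows the medians of the line means were 2.85 in PEO1, 2.24 in PEO4, 1.78 in PEA2, 1.2 in PEA1, 0.849 in CP70 and 0.682 in A2780, so the same lines led in the table at large.

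Not all members were open in PEO1 alone. In 2500 members (74.5%) all 15 other libraries were at or below 2 FPKM. This share largely follows from the rule, which held every other line mean at or below the PEO1 mean divided by 3. In 648 (19.3%) the mean of another line exceeded 2 FPKM, and in 484 (14.4%) all 3 libraries of another line did. The members are therefore best read as windows more open in PEO1 than elsewhere. The line with the next highest mean was PEO4 in 1892 members (56.4%), PEA2 in 1037 (30.9%), PEA1 in 201, CP70 in 132 and A2780 in 95.

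The ratio of PEO1 to the next line had a median of 3.9 and middle values from 3.36 to 4.99. It was at least 5 in 836 members and at least 10 in 111, while 1119 members (33.3%) lay between 3 and 3.5, close to the limit. Just inside it were chr14:45996300-45997300, with a PEO1 mean of 4.54 FPKM against 1.51 in PEA2, chr10:82295100-82296100, with 6.96 against 2.32 in PEA2, and chr7:64348200-64349200, with 4.75 against 1.58 in PEO4. Just outside were chr15:54051300-54052300, with 4.98 against 1.66 in PEA1, chr2:13778100-13779100, with 8.32 against 2.78 in PEO4, and chr11:104643900-104644900, with 3.3 against 1.1 in PEO4. Windows on either side of the limit were alike in level.

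**Figure D2:**
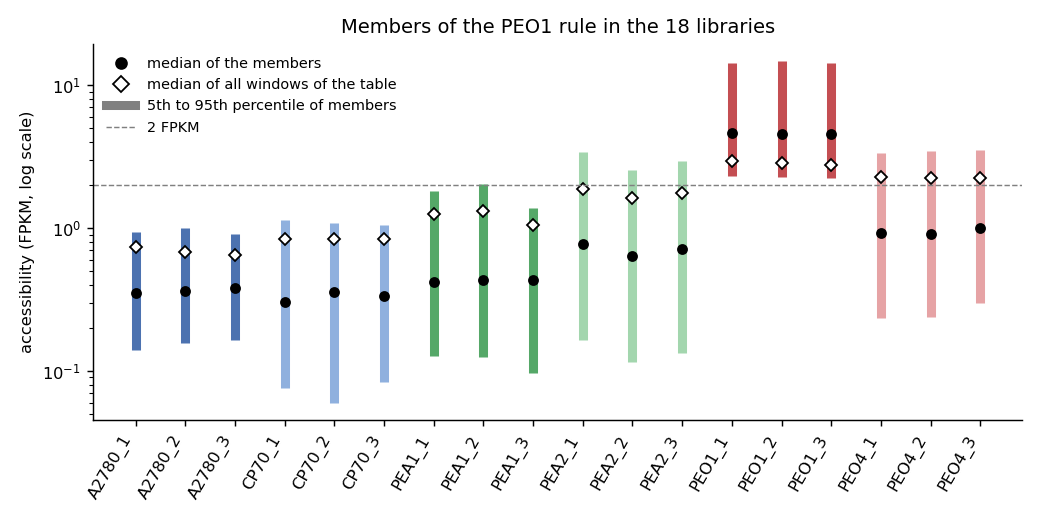
FPKM (log axis) in each of the 18 libraries, with a thick line from the 5th to the 95th percentile of the members, a filled point at their median and an open diamond at the median of all windows of the table. The dashed line marks 2 FPKM. The member medians were 4.54 to 4.65 in the PEO1 libraries and at most 0.996 in any other library.

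The PEO1 libraries were the shallowest and held the greatest share of their reads in the windows. Depth was 8963079 to 11449840 reads in PEO1 and reached 60435027 in an A2780 library, and 2 FPKM corresponded to 17.9 to 22.9 reads in PEO1. The share of reads in windows was 38.9% to 40.8% in PEO1, 32.9% to 35.9% in PEO4, 17.1% to 20.7% in PEA2, 12.9% to 16.8% in PEA1, 11.8% to 15.6% in CP70 and 8.38% to 10% in A2780. This order is that of the line medians above, and the numbers of members under other scalings are given next. The same rule gave 72 windows for A2780, 43 for CP70, 325 for PEA1, 2049 for PEA2 and 1694 for PEO4.

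Another scaling left far fewer members. After median centring 543 windows met the rule, all of them members (16.2%), and after quantile normalization 507 did, also all members (15.1%). With the median of each 5 Mb bin removed, 1858 windows met it, of which 1277 were members (38% of the members). Here each bin was scaled to the table-wide median of its line, so differences in level between lines over the table stayed. This setting changed regional levels only, unlike median centring and quantile normalization. Only 354 members (10.5%) met the rule under all 3, and AP-1 letters occurred in 74% of these. The size of the set thus rested on the FPKM scale. AP-1 letters occurred in 73.3%, 72.8% and 66.7% of the windows chosen under the 3 scalings, and promoters made up 1.29%, 0.986% and 3.5%.

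**Figure D3:**
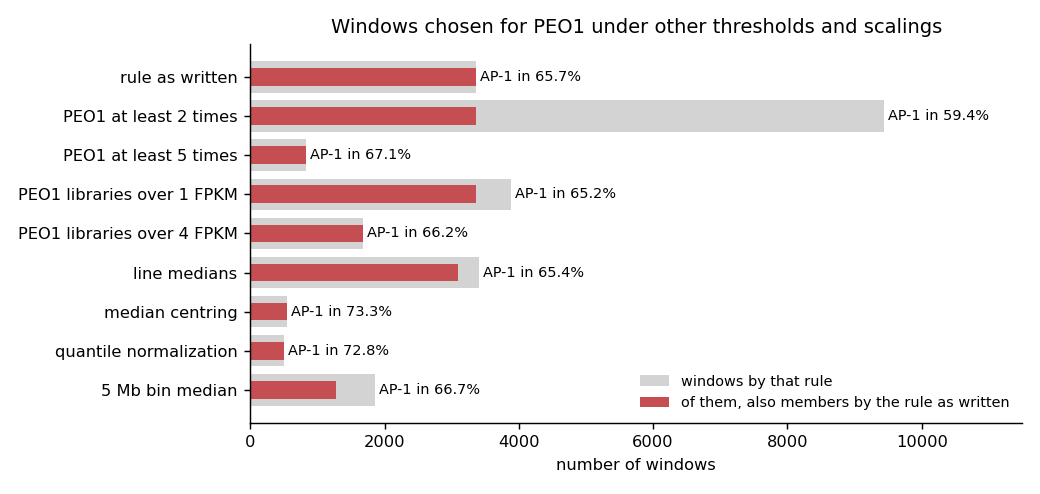
Number of windows that met the rule as stated and under other settings (grey bars), how many of them were members (red bars), and the share with AP-1 letters printed beside each bar. The number ran from 507 with quantile normalization to 9436 with a ratio of at least 2, while the share with AP-1 letters stayed between 59.4% and 73.3%.

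The choice repeated in libraries that it did not use. When windows were chosen on 2 replicates of each line, leaving out replicate 1, 2 or 3, the rule gave 3801, 3480 and 3688 windows. The left-out PEO1 library exceeded 2 FPKM in 94.5%, 92.2% and 93% of them, and it was above every other left-out library in 99.9%, 99.9% and 99.8%. It reached 3 times the highest of them in 65.1%, 74.8% and 69.4%. The direction was therefore found again in nearly all windows and the full ratio in most. The left-out libraries were replicates of the same lines on the same FPKM scale. Their values therefore do not bear on the choice of scaling, and the same shares over all windows were not computed.

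Some members were more open in PEO4 than in the lines of other origin, on the FPKM scale. PEO4 was compared with the mean of A2780, CP70, PEA1 and PEA2 by limma on log2(FPKM + 0.1) across all windows, a contrast that does not involve PEO1, and a window was called when the log2 fold change exceeded 2 and the Benjamini-Hochberg adjusted p was below 0.001. PEO4 was higher at 323 members (9.62%) and lower at 4 (0.119%), against 20% and 0.866% of all 89428 windows. The median log2 fold change was 0.90 over members and 1.12 over all windows. The rule kept these 5 lines at or below the PEO1 mean divided by 3, and most members are in the table through PEO1, so these shares describe the choice and are not read against the table. Among windows averaging over 1 FPKM in the libraries compared, PEO4 was higher at 126 of 607 members (20.8%) and at 19.5% of 65594 windows. Rescaling changed the balance from 323 higher and 4 lower. The counts became 25 and 24 with median centring, 43 and 11 with quantiles equalised and 37 and 17 with bin medians removed. For bin medians the median fold change of each bin was subtracted, which also took out the difference in level between lines. Only the fold change was shifted, and the p stayed that of the unshifted fit. With edgeR on the recovered reads 65 and 59 were called. Of the 323 higher members, 283 (87.6%) had all PEO4 libraries above all libraries of the 4 lines, as did 95.2% of all windows called higher. In every comparison described here each window past the fold threshold also had an adjusted p below 0.001, so the fold alone set the counts.

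The member with the greatest PEO4 rise lay in an intron of MEIS2, a homeobox gene, at chr15:37243800-37244800. PEO4 had 8.2, 6.86 and 8.37 FPKM there, the 4 other lines 0.12 to 0.495, and PEO1 25.7, 24.3 and 24.6. By limma PEO4 exceeded the 4 lines by 4.60 on the log2 scale (SE 0.216, adjusted p = 1.41e-25), and no libraries overlapped. At chr3:144842400-144843400, which lay 961 kb from PLOD2, PEO4 had 8.37, 8.11 and 8.27 FPKM against 0.12 to 0.55, a difference by limma of 4.35 in log2 units (SE 0.203, adjusted p = 1.09e-25).

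Of the members where PEO4 was lower, the largest difference was at the promoter of DNAH9, a dynein heavy chain gene of motile cilia, at chr17:11501100-11502100. PEO4 had 0.0581, 0.096 and 0.0996 FPKM, CP70 3.11, 1.68 and 1.68, and PEO1 6.68, 9.07 and 6.8. In the limma fit PEO4 minus the 4 lines came to -2.76 in log2 units (SE 0.214, adjusted p = 3.59e-17). A2780 had 1.5, 2.28 and 1.72 FPKM, PEA2 1.54, 1.45 and 1.15, and PEA1, nearly closed too, 0.32, 0.187 and 0.432. On the FPKM scale PEO4 was thus closed at a promoter that was open in the other line from its patient. The PEO1 mean was 3.49 times the highest other line there. With median centring, quantile normalization and bin medians removed this ratio was 0.974, 0.941 and 3.75. At chr7:63386100-63387100, which lay 72.6 kb from ZNF722, PEO4 had 0.698, 0.672 and 0.847 FPKM and differed from the 4 lines by -2.28 in log2 units (SE 0.17, limma adjusted p = 7.65e-18). The PEO1 mean at this window was 3.17 times the highest other line on the FPKM scale. Under the same 3 scalings the ratio was 0.925, 0.878 and 2.36.

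PEO4 was also below PEO1 at 1888 members (56.2%) by the same thresholds, against 5.2% of all windows, but the rule used this contrast and the count only describes the choice. The median log2 difference, PEO4 minus PEO1, was -2.09 over members and -0.25 over all windows.

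At the members CP70 and A2780 were both low, with 146 of the 3357 members averaging over 1 FPKM in these libraries, so few calls were possible and the low share describes the choice. CP70 was higher at 1 (0.0298%) and lower at 2 (0.0596%), against 0.191% and 0.199% of all windows, with a median log2 fold change of -0.12 over members and 0.27 over all windows. These counts hung on single libraries: without CP70 replicate 1 limma called 0 higher, without CP70 replicate 3 there were 2 higher and 5 lower, and without A2780 replicate 2 there was 1 lower. Under the 3 scalings they were 0 and 3, 13 and 5, and 1 and 0, and edgeR on the recovered reads called 1 and 32. Where limma called 0, the members with an unadjusted p under 0.05 in that direction numbered 89 after centring (higher) and 231 without CP70 replicate 1 (higher). With bin medians removed they numbered 560 (lower), but that p came from the unshifted fit and does not test the shifted change. The higher member, chr15:51176700-51177700, lay 23.7 kb from AP4E1, an adaptor protein subunit gene, with 2.12, 1.74 and 1.38 FPKM in CP70 and 0.331, 0.315 and 0.314 in A2780 (log2 fold change 2.12, SE 0.215, limma adjusted p = 1.19e-10). Near CDH2, the N-cadherin gene, chr18:25501500-25502500 had 0.0758, 0.299 and 0.251 FPKM in CP70 against 1.06, 1.4 and 1.12 in A2780 (log2 fold change -2.14, SE 0.254, limma adjusted p = 6.86e-09). At chr18:39460500-39461500, whose nearest gene was PIK3C3, all 3 CP70 libraries had 0 reads and A2780 had 0.296, 0.496 and 0.298 FPKM, so CP70 was at least 2.05-fold lower against a floor of 3 reads per library (limma adjusted p = 1.6e-05).

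Some members were more open in PEA2 than in PEA1. PEA2 was higher at 185 (5.51%) and lower at 9 (0.268%), against 9.23% and 1.15% of all windows, with a median log2 fold change of 0.52 over members and 0.30 over all windows. The rule held both lines low, so these shares too describe the choice, and among windows averaging over 1 FPKM in these libraries PEA2 was higher at 113 of 743 members (15.2%) and at 11.2% of 66103 windows. The PEA1 and PEA2 libraries did not overlap at any of these members, nor at any of the windows called over the whole table. Under the same 3 scalings the counts were 57 and 33, 96 and 29, and 84 and 23, and edgeR on the recovered reads called 180 and 46. In an intron of NAALADL2, chr3:174868200-174869200 had 9.51, 6.88 and 9.76 FPKM in PEA2, 0.384, 0.436 and 0.384 in PEA1 and 43.6, 41.3 and 46.1 in PEO1 (log2 fold change 4.12, SE 0.241, limma adjusted p = 4.15e-20). At chr2:10654200-10655200, which lay 66.2 kb from ODC1, the gene of the first enzyme of polyamine synthesis, PEA2 had 2.97, 2.37 and 2.71 FPKM and PEA1 0.192, 0.0623 and 0.144 (log2 fold change 3.61, SE 0.277, limma adjusted p = 4.06e-16).

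Of the members lower in PEA2, that in an intron of FAT1, an atypical cadherin gene, had 0 reads in all 3 PEA2 libraries. At this window, chr4:187542900-187543900, PEA1 had 0.897, 0.685 and 0.671 FPKM, so PEA2 was at least 4.78-fold lower against 3 reads per library (limma adjusted p = 2.88e-11). In PEG3, an imprinted zinc finger gene expressed from the paternal copy, chr19:57349800-57350800 had 0.385, 0.867 and 0.266 FPKM in PEA2 and 2.92, 3.3 and 2.01 in PEA1 (log2 fold change -2.33, SE 0.267, limma adjusted p = 1.32e-10).

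By the annotation used, of protein-coding transcripts alone, members lay between genes and far from starts more often than all windows did. Intergenic windows made up 58.2% of members (1953) and 37% of all windows, and introns 36.5% (1225) and 37%. With all basic transcripts in place of the annotation used, 38.2% of members were intergenic and 6.52% at promoters. The shares of all windows were not computed with all basic transcripts, so these values cannot be set against the table. Besides the 113 promoters there were 31 exonic windows, 12 at transcript ends, 11 in 5′ and 12 in 3′ untranslated regions. The median distance to the nearest protein-coding start was 90.8 kb for members and 12.4 kb for all windows. Over 500 kb from any such start were 407 members (12.1%), against 3.26% of all windows. Windows chosen by the same rule for PEO4 were alike in class, with 57.8% intergenic and 3.66% at promoters, and lay a median of 72.5 kb from a start. Those chosen for PEA2 were 53.8% intergenic and 1.51% at promoters, at a median of 49.3 kb. Distal position was thus shared by line-restricted windows of several lines.

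Base composition differed in the same direction. The median GC content was 42.7% in members, 50.4% in all windows, 45.9% in PEO4-chosen and 46.4% in PEA2-chosen windows. CpG-rich windows, with at least 50% GC and an observed to expected CpG ratio of at least 0.6, made up 3.43% of members (115) and 23.3% of all windows.

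Of 20 short motifs searched on both strands, AP-1 stood furthest above the table. Its letters occurred in 65.7% of members, 33.9% of PEO4-chosen windows and 53.2% of PEA2-chosen windows, and in 43.3% of all windows outside promoters. A single match occurred in 39.1% of members and 27% of all windows, 2 matches in 18.6% and 8.77%, and at least 3 in 8.01% (269 members) and 2.49%. The share in PEO4-chosen windows, from the line of the same patient, was thus below that of the table.

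The share with AP-1 letters was higher in members at each GC level. Below 38% GC it was 72.5% in members and 60.9% in other windows, and between 42% and 46% GC it was 69.9% and 52.4%. At 50% GC or more it was 45% and 23.7%. The share barely moved with the ratio, from 63.9% in the members with the lowest ratio to 66.7% in those with the highest. By the line with the next highest mean it was 67.8% for PEA2, 66.1% for PEO4, 62.7% for PEA1, 57.9% for A2780 and 54.5% for CP70.

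Other motifs lay above or below the table. AGATAA, the GATA factor letters, occurred in 50.2% of members and 35% of all windows, GGAATG of the TEAD factors in 53.8% and 45.8%, and the NFI letters TTGGCA in 48.6% and 41.2%. RUNX letters TGTGGTT were near the table, at 17.8% and 16.9%. Motifs usual at CpG-rich promoters were rarer, with GGGCGG of SP and KLF factors in 15.7% and 45.6% and CCGGAAG of ETS factors in 3.46% and 10.1%. The CTCF core variant AGGGGGC occurred in 10.3% and 24.7%, and the TFAP2 letters GCCNNNGGC in 21.9% and 40.2%. Only the AP-1 share was recomputed within GC levels.

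**Figure D4:**
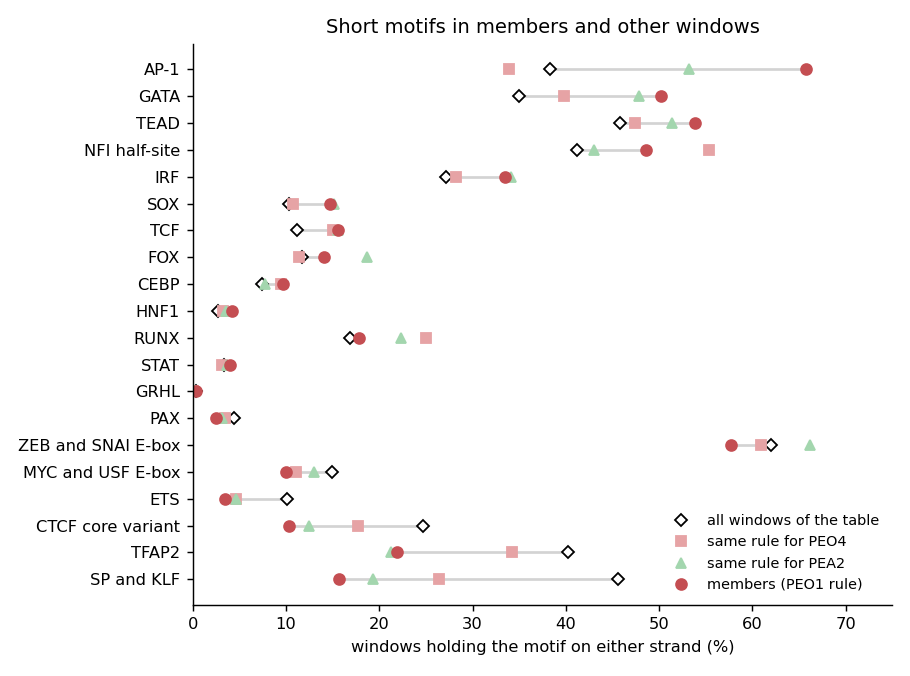
Share of windows (percent) holding each searched motif, with circles for members, diamonds for all windows of the table, squares for windows chosen by the same rule for PEO4 and triangles for PEA2. AP-1 was at 65.7% of members and 38.3% of all windows, and SP and KLF letters were at 15.7% and 45.6%.

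The promoter members included the highest level of any member. The highest was the promoter of PDCD10, a gene in which mutations cause cerebral cavernous malformations, at chr3:167452200-167453200, with 127, 127 and 139 FPKM in PEO1 and 45.9, 44.2 and 38.4 in PEO4, a ratio of 3.06. The neighbouring start of SERPINI1, the neuroserpin gene, at chr3:167453100-167454100 had 67.7, 67.8 and 73.6 FPKM in PEO1 and 19.5, 22.3 and 19 in PEO4. Both windows were open in all 6 lines, with line means of 10.3 to 20.4 FPKM at PDCD10 and 6.31 to 12.9 at SERPINI1 in A2780, CP70, PEA1 and PEA2. These windows overlap by 101 bases and are not independent.

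At the TBX3 promoter, chr12:115121700-115122700, PEO1 had 35.3, 34.8 and 37.6 FPKM, PEO4 7.15, 8.64 and 6.68, PEA2 7.42, 4.74 and 6.97, and PEA1 0.384, 0.374 and 0.575. PEA1 was nearly closed there, unlike PEA2 from the same patient. The promoter of MYO5A, an unconventional myosin that carries vesicles, at chr15:52821000-52822000 had 32.1, 34.2 and 35.9 FPKM in PEO1 and 10.1, 11.8 and 12.2 in PEO4. At LRRC34, chr3:169530300-169531300, PEO1 had 32.9, 29.7 and 32.3 FPKM and PEO4 8.31, 8.93 and 9.66. At SYTL2, which encodes a vesicle trafficking protein, chr11:85429800-85430800 had 29.6, 28.3 and 25.6 FPKM in PEO1 and 7.21, 7.49 and 7.77 in PEO4. The promoter of GOLIM4, a Golgi membrane protein gene, at chr3:167814000-167815000 had 33.9, 29.9 and 32.7 FPKM in PEO1. At UCHL5, a proteasome-associated deubiquitinase gene, chr1:193027500-193028500 had 29.9, 32.3 and 32.5 FPKM in PEO1. The centre of this window lay inside the gene, 0.479 kb from the nearest start.

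Most of these 8 promoters, chosen for level and with ratios close to the limit, did not meet the rule on other scales. TBX3 still met the rule after median centring (ratio 3.47) and after removal of bin medians (3.49) but not after quantile normalization (1.98), SYTL2 only after removal of bin medians (3.68), and the other 6 under none of the 3. Of the 113 promoter members, 7, 5 and 33 met the rule under centring, quantile normalization and bin medians.

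None of the 8 promoter windows held AP-1 letters on GRCh37. The letters were rarer at promoters in the table at large, with 38.3% of all windows and 43.3% of those outside promoters. Their share over promoter windows alone was not computed. The 8 windows are therefore not set against the 65.7% of members, most of which lay outside promoters. Of the RefSeq promoter sequences on GRCh38.p14, 6 of the 8 genes matched by symbol, all but TBX3 and SYTL2. These sequences need not lie within the member windows. The 250 bases before the start are shown for the promoter with the highest level and for the only one with the AP-1 letters, which 6.57% of 35116 RefSeq promoters held, on the strand of the gene with matches in capitals.
PDCD10, minus strand, chr3:167734893-167735142: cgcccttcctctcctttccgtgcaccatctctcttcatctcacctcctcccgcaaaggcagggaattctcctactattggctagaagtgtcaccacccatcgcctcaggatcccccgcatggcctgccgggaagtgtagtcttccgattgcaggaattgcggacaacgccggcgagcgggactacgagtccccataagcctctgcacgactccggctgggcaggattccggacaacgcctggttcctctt
UCHL5, minus strand, chr1:193059361-193059610: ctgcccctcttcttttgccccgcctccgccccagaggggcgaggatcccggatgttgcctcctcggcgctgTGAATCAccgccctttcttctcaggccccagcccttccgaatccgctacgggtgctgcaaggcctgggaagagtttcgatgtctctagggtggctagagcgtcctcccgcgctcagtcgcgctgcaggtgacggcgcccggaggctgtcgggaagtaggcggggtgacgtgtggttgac

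The members were unevenly spread over chromosomes. They made up 10.9% of the windows of chromosome 15 (326 of 2994), 7.47% of chromosome 3 (453), 7.45% of chromosome 4 (301) and 6.74% of chromosome 18 (127), but 0.63% of chromosome 21, 0.785% of chromosome 19 and 0.856% of chromosome 17. Among 549 bins of 5 Mb with at least 20 windows, 111 held no member and the median share was 2.78%. In 21 bins over 20% of windows were members, and these held 533 members (15.9%). The 82 richest bins held 50% of all members.

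In the richest bins the median over all windows, members included, was higher in PEO1 than in any other line. The bins were ranked by their share of members, and medians over the other windows alone were not computed. On chromosome 3 from 165 to 170 Mb, 67 of 179 windows (37.4%) were members, and the median over all windows of the bin was 3.79 FPKM in PEO1 and 1.4 in PEA2, the next line. On chromosome 1 from 195 to 200 Mb it was 51 of 138 (37%), with bin medians of 3.76 in PEO1 and 1.12 in PEO4. On chromosome 15 from 35 to 40 Mb it was 43 of 130 (33.1%), with 4.4 and 1.49. With each bin scaled to the table-wide median of its line, 1277 members still met the rule. DNA copy number was not analysed here.

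**Figure D5:**
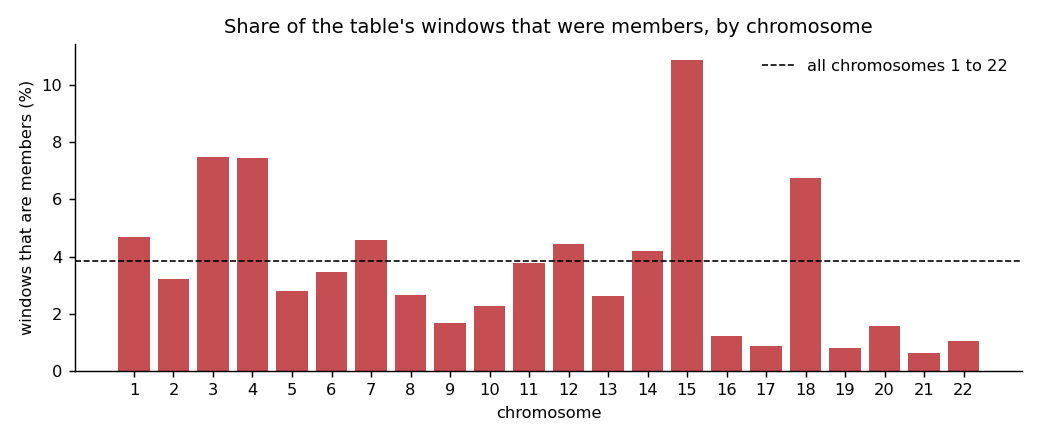
Share of windows that were members (percent) on each of chromosomes 1 to 22, with the share over all of them as a dashed line. Chromosome 15 stood highest at 10.9%, against 3.86% over all autosomal windows.

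Members often adjoined each other. They formed 2659 runs, of which 1992 were single windows, 640 were pairs and 27 had at least 3 windows, and 40.7% of members lay in runs. Since neighbouring windows share 101 bases, such members are not independent. The longest run had 5 windows at chr19:57348000-57352600, over the shared start of PEG3 and ZIM2, which are both imprinted. The PEO1 means along it were 4.02, 11.5, 20.3, 20.1 and 2.91 FPKM, those of PEA1 0.665, 2.14, 2.74, 2.59 and 0.593, and those of PEO4 0.36, 0.594, 0.555, 0.467 and 0.322. The start was thus open in PEO1 and nearly closed in PEO4, from the same patient.

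The densest stretch of 100 kb lay at chr3:169476300-169532200, over ACTRT3, MYNN, LRRC34 and LRRIQ4, where 12 of 17 windows were members and PEO1 means ran from 2.46 to 31.6 FPKM. Over part of ATP10A, a phospholipid transporter gene, and beside it, 9 of 18 windows of chr15:26049600-26137900 were members. Around ANXA3, an annexin gene, 8 of 11 windows of chr4:79471800-79571800 were members, 5 of them with AP-1 letters. All 7 windows of chr3:164912400-164973700 near SLITRK3, a neuronal membrane protein gene, were members. At chr7:135357300-135431200, over SLC13A4, FAM180A and STMP1, 7 of 16 were members and 6 of these held AP-1 letters.

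Some genes held many members in their bodies. CNTNAP2, a neurexin family gene, held 18 members among its 68 windows (26.5%), with a median PEO1 mean of 5.65 FPKM. OPCML, a cell adhesion gene, held 13 of 26, GABRG3, a GABA receptor subunit gene, 11 of 26, CTNNA2, an alpha catenin gene, 9 of 31, and DLG2, a synaptic scaffold gene, 9 of 51. ZNF385D held 8 of 24 and DPP6 8 of 31. In all 855 genes held a member, 514 of them a single one and 34 at least 5, and the counts were not adjusted for gene length.

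Within CNTNAP2 the highest member was the intron window chr7:146893500-146894500, with 28.4, 26.5 and 27.8 FPKM in PEO1, 4.36, 4.9 and 5.03 in PEO4 and 2.86, 2.2 and 1.91 in PEA2. In OPCML, chr11:133213500-133214500 had 16, 14.6 and 12.8 FPKM in PEO1 and 4.4, 1.85 and 1.91 in PEA2. In GABRG3, chr15:27699300-27700300 had 10.5, 10.2 and 11.9 FPKM in PEO1 and 2.44, 2.21 and 3.74 in PEO4. The next line was thus PEO4 in some of these genes and PEA2 in others.

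MECOM, a zinc finger transcription factor gene, held 7 members among 28 windows (25%), with a median PEO1 mean of 10.4 FPKM and no AP-1 letters. It lies on chromosome 3 between 165 and 170 Mb, the richest bin, where 37.4% of windows were members. The densest stretch and the promoters of PDCD10, SERPINI1, GOLIM4 and LRRC34 lie in the same bin, so these places are not separate observations. AGBL1, UNC13C, ATP10A and ATP8B4 also held 7, and MECOM is described because its median was the highest of these. Its highest member, chr3:169380000-169381000, had 24, 24.8 and 25.9 FPKM in PEO1, 8.35, 7.69 and 6.92 in PEA2, 6.7, 8.38 and 4.03 in PEA1 and 2.96, 4.66 and 3.69 in PEO4. PEO1 stood apart, while the PEO4 and PEA1 libraries overlapped. Another member at an internal start, chr3:168864300-168865300, had 11.1, 14.5 and 15.3 FPKM in PEO1 and 4.56, 4.68 and 4.26 in PEA2.

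Lists of genes related to the tissue were read against the background of 1732 of 19222 autosomal genes (9.01%) with a member in the gene or within 50 kb. Of 14 serous and Mullerian genes 2 had one, MECOM and ESR1, the oestrogen receptor gene. The introns of ESR1 held 2 members, chr6:152237700-152238700 with 6.78, 6.63 and 5.35 FPKM in PEO1 and 1.34, 1.34 and 1.44 in PEO4, and chr6:152375400-152376400 with 5.16, 4.62 and 4.79 in PEO1 and 0.174, 0.24 and 0.299 in PEO4. Of 13 genes of the oestrogen receptor, its partners and targets, 2 had a member, ESR1 again and FOXA1, a pioneer factor that opens sites for the receptor. Its members lay 14.7 and 11.1 kb away, with 5.26, 5.76 and 5.13 FPKM and 5.46, 6.81 and 5.8 FPKM in PEO1.

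Of 15 receptor tyrosine kinase genes 2 had members, EGFR and IGF1R. In EGFR, chr7:55199700-55200700 had 13.9, 16.4 and 16.5 FPKM in PEO1, 5.22, 4.51 and 5.64 in PEA2 and 5.06, 4.51 and 4.68 in PEO4. This intron was open in 3 lines, highest in PEO1. Of 10 mesenchymal genes 4 had members, namely CDH2, FN1, SPARC and TWIST1, the last 96.6 kb from its start. Of 12 simple epithelium genes KRT7 and GRHL2 did, and of 15 WNT genes only WNT7B, where the PEO1 libraries had 10, 8.73 and 8.69 FPKM and PEO4 2.67, 3.36 and 2.49.

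None of the 10 genes of the AP-1 family and none of the 12 homologous recombination genes had a member within 50 kb. Over all autosomal genes the share with a member was 9.01%, so lists this short can hold none, and nothing is read from these counts. Markers of ovarian carcinoma epithelium (PAX8, EPCAM, KRT8, KRT18, KRT19 and CDH1) were open at the start in 6 of 6 genes, at 3.03 to 11.3 FPKM in PEO1, with no member nearby. Of 4 leukocyte genes only CD14 had its start in the table, at 5.67 FPKM in PEO1 and thus within the range of the epithelial starts, and introns of PTPRC held 2 members at 6.15 FPKM each. Of 5 fibroblast genes only COL1A2 had a start window, at 1.93 FPKM in PEO1, and none of 3 endothelial genes did, with PECAM1 not annotated here. The epithelial starts were thus all in the table, while most leukocyte, fibroblast and endothelial starts were not. Open starts were not particular to epithelial genes. Of the 10 mesenchymal genes 9 had a start in the table, at 1.21 to 9.53 FPKM in PEO1. The part of other cells was not tested.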

How the data were processed

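ATAC-seq libraries of 6 ovarian cancer lines, 3 each, were analysed from a table of windows deposited by the authors. Per the study's methods, the authors removed duplicates with Picard, aligned reads to hg19 (GRCh37) with Bowtie2, counted reads in windows of 1 kb with featureCounts and scaled them with edgeR. Tool versions are not given in the sources used here. The deposited values, named FPKM by the authors, behave as RPM, reads scaled by library total alone, since all windows have the same length, and whole reads were recovered from them. Every window of the table exceeded 2 FPKM in at least 2 libraries. Windows span 1001 bases and neighbours share 101. The number of listed columns left unused was 0.

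Samples were grouped by line from their labels. Contrasts were fitted with limma 3.58.1 (R 4.3.3) on log2(FPKM + 0.1) over all 18 libraries and 89428 windows with a trended variance. A window was called at an absolute log2 fold change over 2 and a Benjamini-Hochberg adjusted p below 0.001. edgeR 4.0.16 on recovered reads was an alternative, and scripts were tested on simulated data. Classes and distances came from the basic protein-coding transcripts of GENCODE 44 lifted to GRCh37. They were read with pandas 2.3.3, numpy 2.4.6 and pysam 0.24.0, and plots were drawn with matplotlib 3.10.9. Floors of 3 reads and all intervals of counting cover counting error only.

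Named windows were the 8 with the largest PEO1 ratio (with 0.1 added to the other mean, none within 10 kb of another), the 8 promoters with the highest PEO1 mean, the 3 on either side of the ratio limit and, per contrast, the 2 called members in each direction with the largest change whose libraries did not overlap. Named genes were the 8 with the most members (a tie at the eighth place went to the highest median PEO1 mean), those of the 5 densest stretches of 100 kb, and every listed gene with a member within 50 kb. DNAH9, FAT1 and the other genes named beside a window are its nearest or host gene. The members, lists and motifs were chosen with earlier results of these data known. Other thresholds, pseudocounts, scalings, filters, gene annotations, a replicate block and the omission of each library were tried. The AP-1 share within GC classes and under each setting, and the named windows under 3 scalings, and the test of the difference between both pairs of lines, were added after the data were seen.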

Additional observations from a re-analysis of the deposited data

Results flagged for a closer look

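The resistant minus sensitive difference was compared between both pairs of lines, PEA2 minus PEA1 against CP70 minus A2780, at the 7 members named for either pair. These windows had been picked for a large change in one pair, which favours a difference, and the comparison was chosen after the data were seen. At 5 of them the pairs differed by over 2 on the log2(FPKM + 0.1) scale with an adjusted p below 0.001 in the limma fit over all windows.

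At the NAALADL2 intron window PEA2 minus PEA1 was 4.12 and CP70 minus A2780 was -1.24, a difference between pairs of 5.36 (SE 0.34, limma adjusted p = 8.14e-18). Near ODC1 they were 3.61 and -0.38, a difference of 3.99 (SE 0.392, limma adjusted p = 6.72e-12). Near CDH2 they were 1.59 and -2.14, a difference of 3.74 (SE 0.359, limma adjusted p = 3.51e-12). In FAT1 they were -3.08 and 0.63, a difference of -3.71 (SE 0.473, limma adjusted p = 6.17e-09), where the fitted value depends on the pseudocount because the PEA2 libraries had 0 reads. In PEG3 they were -2.33 and 0.76, a difference of -3.09 (SE 0.377, limma adjusted p = 2.16e-09). The other 2 windows, near AP4E1 (-1.33) and PIK3C3 (1.47), stayed below the fold threshold. Outliers within a group were not looked for, since each line had 3 libraries.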

How the results depend on the processing

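The number of members was 9436 with a ratio of at least 2, 836 with at least 5, 1678 with PEO1 over 4 FPKM, 543 after median centring, 507 after quantile normalization and 1858 with 5 Mb bin medians removed. The promoter share was 8.21%, 2.03%, 5.24%, 1.29% and 0.986% under the first 5 of these and 6.52% with all basic transcripts, and the intergenic share was 51.6%, 61.4%, 65.6%, 66.7%, 56.1% and 38.2% with ratios of 2 and 5, centring, quantile normalization, bin medians and all basic transcripts. Leaving out each library gave 3199 to 3690 members, 3.02% to 3.69% promoters and 57.5% to 58.5% intergenic, and the left-out PEO1 library passed 2 FPKM in 92.2% to 94.5%.

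For PEO4 against 4 lines, 323 higher and 4 lower became 53 and 0 with a pseudocount of 0.5, 12 and 0 with 1, 25 and 24 after centring, 43 and 11 after quantile normalization, 37 and 17 with bin medians, 1529 and 23 at thresholds of 1 and 0.05, and 65 and 59 with edgeR, and 126 were higher with windows averaging over 1 FPKM. For CP70 against A2780, 1 higher and 2 lower became 0 and 0 with either pseudocount, 13 and 5 after quantile normalization and 38 and 142 at the looser thresholds, 0 were higher after centring, 0 were lower with the filter or bin medians, and 32 were lower with edgeR. For PEA2 against PEA1, 185 higher and 9 lower became 34 and 0, and 7 and 0, with the pseudocounts, 113 and 3 with the filter, 57 and 33 after centring, 96 and 29 after quantile normalization, 84 and 23 with bin medians and 1012 and 111 at the looser thresholds, and 46 were lower with edgeR. For PEO4 below PEO1, 1888 became 973 and 408 with the pseudocounts, 1153, 819 and 750 under the 3 scalings and 3357 at the looser thresholds. Where limma called 0, 14 to 560 members had an unadjusted p under 0.05 in that direction. In all counts of calls with bin medians removed, the p-values were those of the fit before removal. The causes were not tested.

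Without each library in turn, PEO4 was higher at 311 to 349 members and lower at 3 to 4, CP70 higher at 0 to 2 and lower at 1 to 5, PEA2 higher at 153 to 235 and lower at 6 to 12, and PEO4 below PEO1 at 1853 to 1957. With the replicate number as a block the counts stayed at 323 and 4, 1 and 2, 185 and 9, and 1888, since in this balanced design the block leaves fold changes as they were and each window past the fold threshold also passed the adjusted p in both fits. Deviations of libraries with the same number correlated at -0.16 to 0.125 (median 0.011), so the numbers do not pair the samples. Low counts limit values below 0.2 FPKM, where the pseudocount sets the fold.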
